A study of Mus musculus with 9 samples.

Results

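Intermediate filament genes were examined in the embryonic mouse hypothalamus as a set of 7, made of Vim and Nes, which neural progenitors use, and Ina, Nefl, Nefm, Nefh and Prph, which neurons use. They were chosen by name, and each had a single row among the 38195 gene symbols of the deposited table. The tissue was E12.5 hypothalamus of outbred CD-1 mice, and no group carried a mutation or a treatment. Dissection of vibratome slices gave the ventricular zone beside the lumen and a medial and a lateral mantle zone outside it, with 3 libraries each, and nothing in the labels says whether these came from separate embryos. P-values therefore measure the spread between libraries, part of which may be technical. Values were FPKM, fragments scaled by transcript length and by library depth, so levels can be set side by side between genes.

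Intermediate filaments are rope-like polymers of the cytoskeleton whose subunits change as a cell matures. Radial progenitors that line the ventricle build filaments of vimentin (Vim), joined by nestin (Nes), which needs a partner such as vimentin to polymerise. Neurons that leave this zone switch to alpha-internexin (Ina), the early neuronal subunit, and to the neurofilament triplet of light (Nefl), medium (Nefm) and heavy (Nefh) chains. The heavy chain is known to come late, as axons mature and widen. Peripherin (Prph) is best known from peripheral neurons and from central neurons with axons that leave the brain.

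The 7 genes lie on 6 chromosomes of GRCm38, the assembly called mm10. Vim spans chromosome 2 from 13573927 to 13582826, Nes chromosome 3 from 87971078 to 87980451, and Ina chromosome 19 from 47014698 to 47025327, all on the plus strand. Nefh lies on chromosome 11 from 4938754 to 4948064 on the minus strand, and Prph on chromosome 15 from 99055174 to 99058978 on the plus strand. Nefl (68083863 to 68089095, plus strand) sits inside the annotated span of Nefm (68082590 to 68124846, minus strand) on chromosome 14. Of 2 annotated Nefm transcripts, 1 shares 1108 exonic bases with Nefl and the other shares 0. The Ina span shares 456 bases with Nt5c2 on the opposite strand. No strand setting is stated, so reads from such shared bases cannot be assigned to either gene.

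RefSeq promoter sequences on GRCm38 were found for 4 of the 7 genes, Vim, Nes, Ina and Prph. The 250 bases before the start are shown for Vim (chr2:13574061-13574310), Nes (chr3:87970843-87971092) and Ina (chr19:47014431-47014680), all plus strand, because these genes had the highest levels on the progenitor and on the neuronal side. The RefSeq starts of Vim and Nes lie inside their GENCODE spans, which begin upstream of them. The whole Vim window and the last bases of the Nes window are thus within those spans. Capitals mark the TATA box core TATAAA, the E-box core CANNTG and the GC box core CCGCCC on either strand, and no matches overlapped.
Vim: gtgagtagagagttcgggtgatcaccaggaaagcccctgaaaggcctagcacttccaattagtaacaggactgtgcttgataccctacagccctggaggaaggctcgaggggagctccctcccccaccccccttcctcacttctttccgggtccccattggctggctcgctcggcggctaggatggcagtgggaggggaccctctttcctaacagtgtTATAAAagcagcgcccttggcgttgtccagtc
Nes: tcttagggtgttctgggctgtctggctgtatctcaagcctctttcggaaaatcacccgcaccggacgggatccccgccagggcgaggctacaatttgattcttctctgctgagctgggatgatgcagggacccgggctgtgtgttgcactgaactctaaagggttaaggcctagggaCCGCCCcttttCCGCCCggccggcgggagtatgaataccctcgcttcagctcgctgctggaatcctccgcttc
Ina: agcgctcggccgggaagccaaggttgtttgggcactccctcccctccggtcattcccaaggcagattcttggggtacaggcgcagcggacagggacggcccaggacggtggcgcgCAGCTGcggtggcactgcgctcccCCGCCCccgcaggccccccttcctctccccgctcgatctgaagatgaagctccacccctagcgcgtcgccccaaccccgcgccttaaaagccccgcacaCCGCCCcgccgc

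The TATAAA match began 32 bases before the start of Vim and 31 bases before that of Prph, and was not in the Nes or Ina window. It was present in 12.4% of 32851 mouse promoter windows of this length. CANNTG, the E-box core bound by basic helix-loop-helix factors, occurred at 1 position, in Ina, 135 bases before the start, against 66.2% of all windows with at least 1. CCGCCC, a GC box core, was found at 2 positions in Nes, 2 in Ina and 1 in Prph, against 32.7% of windows with at least 1. These matches describe letters in the window and were not tied to the expression values by any test.

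Depth and purity of the libraries bear on every value that follows. The depth implied by the size of the lowest values was 4423625 to 8766455 fragments in 7 libraries, 262305 in ventricular replicate 3 and 541769 in medial replicate 3. The 8 progenitor markers summed to 372 to 1107 FPKM in ventricular, 431 to 496 in medial and 16.7 to 43.3 in lateral libraries, and all 8 rose in the ventricular against the lateral mantle zone (background 10.7% of tested genes). The hypothalamic factor Nkx2-1 was 41.5 to 191 FPKM in ventricular, 40.2 to 146 in medial and 11.7 to 35.9 in lateral libraries. The library labelled ventricular zone replicate 2 stood apart from its group, with the 372 FPKM of progenitor markers and the highest sum of 8 neuron markers among the ventricular libraries (1199 FPKM, against 445 and 555). Its mean distance over 14004 genes, as a root mean square on the log2 scale, was 0.600 from the medial, 0.794 from the lateral and 0.907 from the other ventricular libraries. Ventricular replicate 1 was also nearer to the medial (0.744) than to the other ventricular libraries (0.832), and replicate 3 was not (1.28 and 1.17). The shallow ventricular replicate 3, also 1.59 from the lateral libraries, enters the ventricular means of replicates 1 and 2. The shallow medial replicate 3 enters the medial means. How far depth set these distances was not tested. Results are therefore given with and without ventricular replicate 2. That library was singled out in part by markers of the cell types that use the filament genes. Larger filament differences without it are thus not independent support. Leaving it out also removes the deepest library (8766455 fragments) and keeps only replicates 1 and 3, the latter at 262305 fragments.

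Between the ventricular and lateral mantle zones, both progenitor filament genes rose and 3 of 4 tested neuronal ones fell, all relative to the lateral mantle zone. That made 5 of 6 tested members called, against 19.6% of all 14004 tested genes. By direction the background was 10.7% higher and 8.93% lower. The libraries of the zones did not overlap for any of the 6 tested members, against 45.1% of tested genes. In whole tissue, fewer cells of a type and less RNA per cell cannot be told apart. Prph was below the level needed for testing, at least 1 FPKM in at least 3 libraries.

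**Figure D1:**
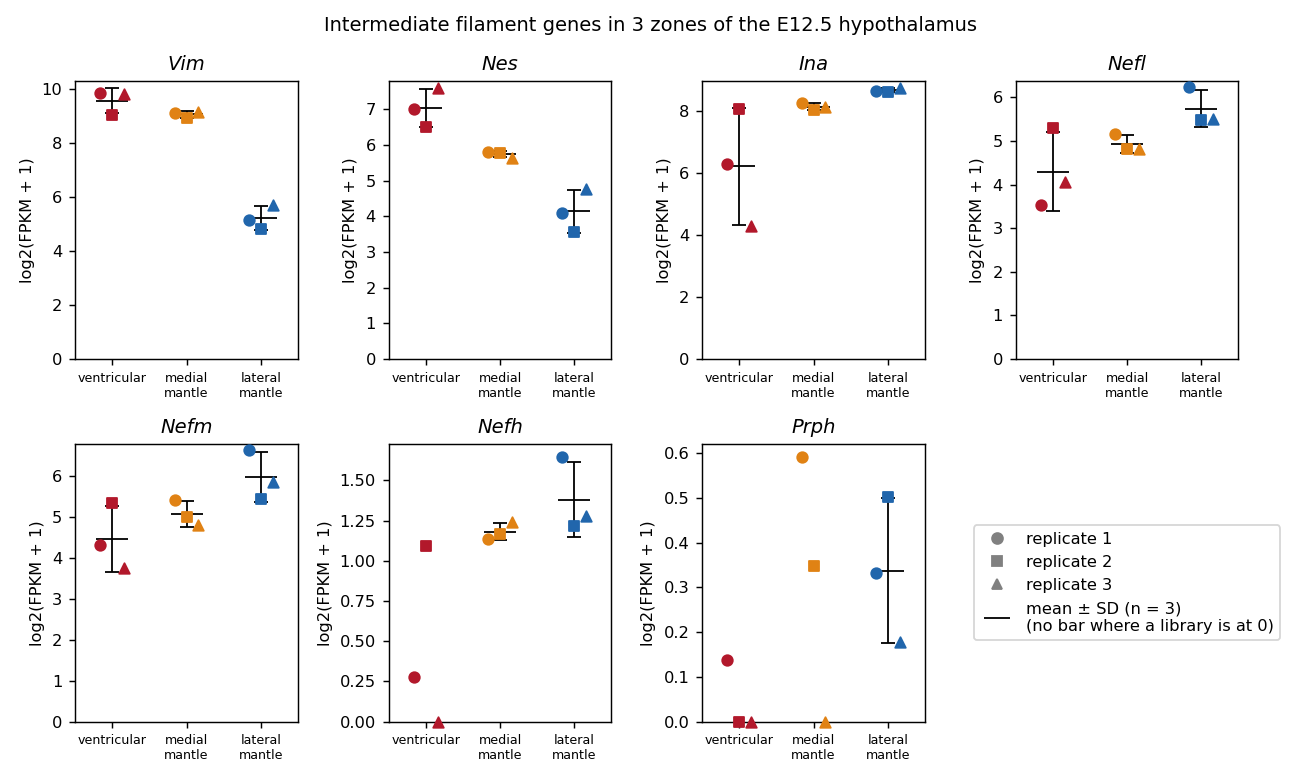
Level of each of the 7 filament genes, as log2(FPKM + 1), in every library of the ventricular, medial mantle and lateral mantle zones, with symbols for the replicate number and bars for the mean ± SD (n = 3), drawn only where no library of the zone is at 0. Vim drops between the medial and lateral mantle zones while Nes steps down at each zone, and Ina is high in all libraries except ventricular replicates 1 and 3.

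Vim was the most abundant member in the ventricular and medial zones. It measured 918, 522 and 899 FPKM in the 3 ventricular libraries, 555, 481 and 568 FPKM in the medial libraries, and 34.2, 27.1 and 51.4 FPKM in the lateral libraries. The ventricular and medial libraries overlapped, because ventricular replicate 2 lay inside the medial range, and all 6 lay far above the lateral ones. The mean was 779 ± 223 FPKM in ventricular, 535 ± 46.6 in medial and 37.5 ± 12.47 in lateral libraries (SD, n = 3 each). The ventricular mean was 20.8-fold the lateral mean. On the log2(FPKM + 1) scale used for all tests, where limma fitted all 9 libraries, the difference was 4.34 ± 0.27 (SE; limma adjusted p = 8.4e-05). It was 4.61 without ventricular replicate 2, and adjusted p was at most 0.00247 in every one of the 19 alternative settings.

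Nes, a long filament protein that pairs with vimentin in dividing neural cells, measured 128, 90.0 and 191 FPKM in the ventricular libraries, 54.8, 53.6 and 48.8 FPKM in the medial libraries, and 15.98, 10.9 and 26.2 FPKM in the lateral libraries. No 2 zones overlapped. The mean was 136 ± 51.0 FPKM in ventricular, 52.4 ± 3.16 in medial and 17.7 ± 7.80 in lateral libraries (SD, n = 3 each). The ventricular zone exceeded the lateral by 2.89 ± 0.33 on the log2 scale (SE; limma adjusted p = 0.00086), and by 3.16 without ventricular replicate 2. In the lateral zone, replicate 3 had the highest Vim and the highest Nes, and also the highest sum of progenitor markers (43.3 FPKM, against 28.9 and 16.7). Single markers differed in this. Among lateral libraries Sox2 was highest in replicate 3 (17.0 FPKM, against 5.43 and 2.80). Fabp7 was highest in replicate 1 (14.8 FPKM, with 12.6 in replicate 3) and Hes5 in replicate 2 (2.77 FPKM, with 0.190 in replicate 3).

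Ina was the most abundant neuronal filament gene in every library. It measured 77.4, 272 and 18.7 FPKM in the ventricular libraries, 307, 265 and 281 FPKM in the medial libraries, and 406, 395 and 432 FPKM in the lateral libraries. The medial and lateral libraries each agreed to within a factor of 1.16 and 1.09, while the ventricular libraries ranged 14.6-fold. The mean was 123 ± 133 FPKM in ventricular, 285 ± 21.3 in medial and 411 ± 19.0 in lateral libraries (SD, n = 3 each). The ventricular zone was lower than the lateral by a log2 difference of -2.46 ± 0.72 (SE; limma adjusted p = 0.0401). This was -3.39 (adjusted p = 0.00118) without ventricular replicate 2, which held Ina at a medial level, and -1.49 (0.0389) without the shallow ventricular replicate 3, where Ina rested on about 15.85 fragments. It did not pass without ventricular replicate 1 (adjusted p = 0.091), medial replicate 1, 2 or 3 (0.0586, 0.0604 and 0.0544) or lateral replicate 1, 2 or 3 (0.108, 0.106 and 0.103). A pseudocount of 0.1 (limma adjusted p = 0.0537) and no filter (0.0856) also ended the Ina call. So did no intensity trend (0.054) and only the ventricular and lateral zones in the fit (0.0867). The call was lost in 11 of 19 alternatives.

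The light and medium neurofilament chains, which co-assemble in axons, had similar levels. The longer annotated Nefm transcript shares 1108 exonic bases with Nefl, and how far shared reads set either level was not tested. Nefl measured 10.6, 38.5 and 15.6 FPKM in the ventricular libraries, 34.9, 27.4 and 27.1 FPKM in the medial libraries, and 74.2, 43.8 and 44.3 FPKM in the lateral libraries. Nefm measured 18.8, 39.6 and 12.4 FPKM in the ventricular libraries, 41.6, 30.6 and 26.9 FPKM in the medial libraries, and 98.3, 41.9 and 56.3 FPKM in the lateral libraries. For both genes every lateral library was above every ventricular and every medial one, and lateral replicate 1 was the highest. The log2 difference, ventricular minus lateral, was -1.44 ± 0.40 for Nefl and -1.50 ± 0.42 for Nefm (SE; limma adjusted p = 0.0346 and 0.0337). Without ventricular replicate 2 these were -1.94 and -1.94 (adjusted p = 0.0016 and 0.00493).

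In the shallow ventricular replicate 3 these values rested on about 13.8 and 12.01 fragments. Neither call held without ventricular replicate 1 (limma adjusted p = 0.101 for Nefl and 0.0932 for Nefm) or ventricular replicate 3 (0.0784 and 0.0802). The same was true without lateral replicate 1 (0.129 and 0.125), 2 (0.0775 and 0.0511) or 3 (0.0713 and 0.0805) and without medial replicate 2 (0.0541 and 0.053). Nefl alone was also lost without medial replicate 1 (0.0507). Both calls were lost with no filter (limma adjusted p = 0.0706 for Nefl and 0.0696 for Nefm). They were lost too with only the ventricular and lateral zones in the fit (0.0757 and 0.0695) and without both shallow libraries (0.0684 and 0.0635). The Nefl call was lost in 10 and the Nefm call in 9 of 19 alternatives. The log2 differences stayed negative throughout the alternatives, from -2.04 to -1.06 for Nefl and from -1.94 to -1.14 for Nefm.

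Nefh, the heavy chain, was present at a low level. It measured 0.211 and 1.13 FPKM in ventricular replicates 1 and 2 with a listed 0 in replicate 3, where 1 fragment on its 3994-base transcript was worth about 0.954 FPKM. It measured 1.196, 1.25 and 1.36 FPKM in the medial libraries, and 2.13, 1.32 and 1.42 FPKM in the lateral libraries. The lateral and medial libraries overlapped, and the highest ventricular library lay just below both. The log2 difference between the ventricular and lateral zones, -0.92 ± 0.34, did not pass (SE; limma adjusted p = 0.0848). It passed without ventricular replicate 2 (-1.24, adjusted p = 0.0213), a fit in which 28.3% of all tested genes were called.

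Prph was near the limit of detection. It measured 0.101 FPKM in ventricular replicate 1 while ventricular replicates 2 and 3 had it listed at 0. It measured 0.506 and 0.272 FPKM in medial replicates 1 and 2, with replicate 3 listed at 0, and 0.259, 0.417 and 0.131 FPKM in the lateral libraries. These values stand for about 6.52 fragments at most. Of 8 markers of cranial ganglia, a peripheral source of Prph, 7 were in the table and summed to 0 to 13.2 FPKM in ventricular, 17.4 to 29.9 in medial and 19.6 to 26.3 in lateral libraries. Most of the lateral sum was Sncg, at 15.8 to 19.8 FPKM there. Whether such cells contributed to Prph was not tested.

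**Figure D2:**
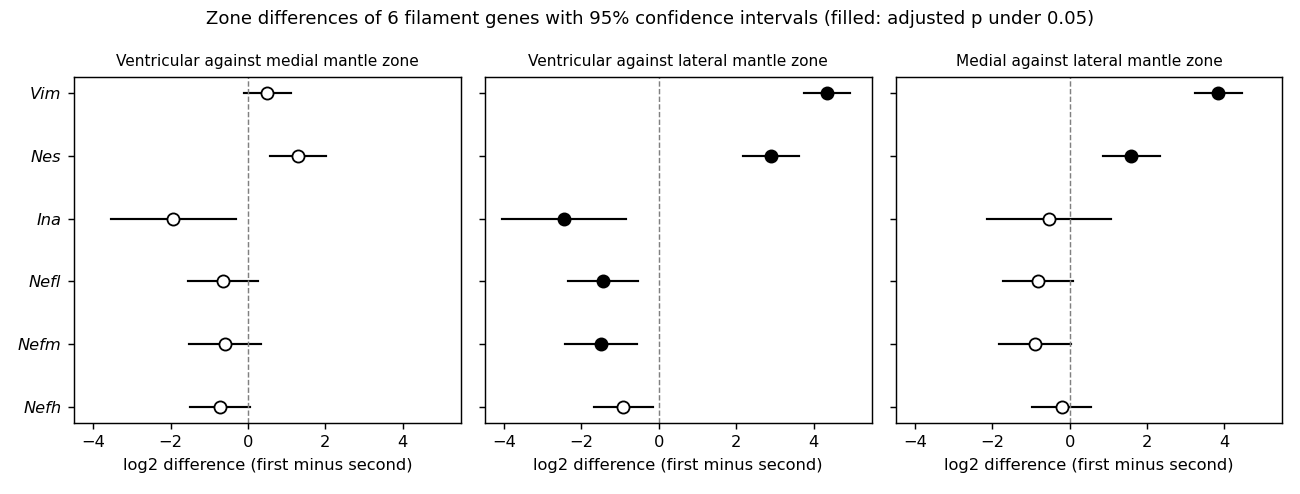
Log2 difference between zones on the log2(FPKM + 1) scale for the 6 tested filament genes, with 95% confidence intervals from limma, for the ventricular against the medial mantle, the ventricular against the lateral mantle and the medial against the lateral mantle zone. Filled points mark adjusted p under 0.05: both progenitor genes and Ina, Nefl and Nefm in the second panel, Vim and Nes in the last, and no gene in the leftmost.

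Between the medial and lateral mantle zones, Vim and Nes rose in the medial zone and no neuronal filament gene passed, so that 2 of 6 tested members were called against 4.12% of tested genes (3.58% higher and 0.543% lower). Vim was 14.2-fold higher by its means, with a log2 difference of 3.84 ± 0.27 (SE; limma adjusted p = 0.000365). Nes was 2.96-fold higher, a log2 difference of 1.60 ± 0.33 (SE; limma adjusted p = 0.0259). The Nes call was lost without medial replicate 1, 2 or 3 (adjusted p = 0.0828, 0.0935 and 0.0816) and without lateral replicate 1 or 2 (0.103 and 0.107). It was also lost with no filter, and so in 6 of 19 alternatives. The Vim call held in each of the 9 fits that left out a library.

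The neuronal genes were lower in the medial zone without passing. The log2 difference, medial minus lateral, was -0.53 ± 0.72 for Ina, -0.81 ± 0.40 for Nefl, -0.90 ± 0.42 for Nefm and -0.20 ± 0.34 for Nefh (SE; limma adjusted p = 0.722, 0.295, 0.257 and 0.789). The libraries did not overlap in 5 of the 6 tested members, all except Nefh, against 40.4% of tested genes. The fit of 3 zones uses 1 estimate of spread per gene for all comparisons. With only the medial and lateral libraries in the fit, the Ina difference of -0.53 passed (limma adjusted p = 0.0182), as did 14.5% of all tested genes. With library weights Nefm passed (-0.87, limma adjusted p = 0.041), in a fit that called 26.4% of all tested genes.

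Between the ventricular and medial mantle zones, 0 of 6 tested members passed by limma, and 0% of all tested genes did. The smallest adjusted p of any gene was 0.0624. At an unadjusted p under 0.05 there were 2 members, Nes and Ina, and 1661 of 14004 genes. The log2 difference, ventricular minus medial, was 0.50 for Vim (95% interval -0.10 to 1.10), 1.30 for Nes (0.57 to 2.03) and -1.93 for Ina (-3.53 to -0.32). It was -0.64 for Nefl (-1.54 to 0.27), -0.60 for Nefm (-1.53 to 0.33) and -0.73 for Nefh (-1.49 to 0.04). The libraries did not overlap for Nes and Nefh, 2 of 6 tested members, against 14.7% of tested genes. For Nefh the gap was narrow, 1.13 FPKM in ventricular replicate 2 against 1.196 in medial replicate 1. Nefh rested on about 4.86 fragments in ventricular replicate 1 and 2.95 in medial replicate 3, where 1 fragment was worth 0.462 FPKM.

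Without ventricular replicate 2, Nes was higher by 1.56 (limma adjusted p = 0.0351) and Ina lower, with a log2 difference of -2.86 (adjusted p = 0.0151), in the ventricular against the medial zone. Vim did not pass in that fit (0.77, adjusted p = 0.111), nor did Nefl (-1.14, adjusted p = 0.06), Nefm (-1.04, adjusted p = 0.138) or Nefh (-1.04, adjusted p = 0.109). In that fit 4.08% of all tested genes were called. Because replicate 2 was singled out in part by progenitor and neuron markers, the passes without it are not independent support for a difference. With weights estimated per library, 5 members passed, all except Nefm, against 19.7% of all tested genes. Those weights gave 3.67 to ventricular replicate 1, 0.473 to replicate 2 and 0.108 to replicate 3. Over the 19 alternatives the Ina difference ran from -2.86 to -0.96, so other settings gave smaller values than the main fit. It ran from 0.97 to 1.56 for Nes and from 0.36 to 0.77 for Vim. Ina rested on about 15.85 fragments in the shallow ventricular replicate 3.

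Within a library, the balance of progenitor to neuronal filaments separated the lateral zone from the others. The summed level of Vim and Nes over that of the 5 neuronal genes was 9.77, 1.74 and 23.3 in the ventricular libraries, 1.58, 1.65 and 1.83 in the medial libraries, and 0.0863, 0.0787 and 0.145 in the lateral libraries. Progenitor filaments thus exceeded neuronal ones in all 6 ventricular and medial libraries and fell below them in all 3 lateral ones. Ventricular replicate 2 lay within the medial range. This ratio was computed on members chosen with results known, so it is a description without a test.

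**Figure D3:**
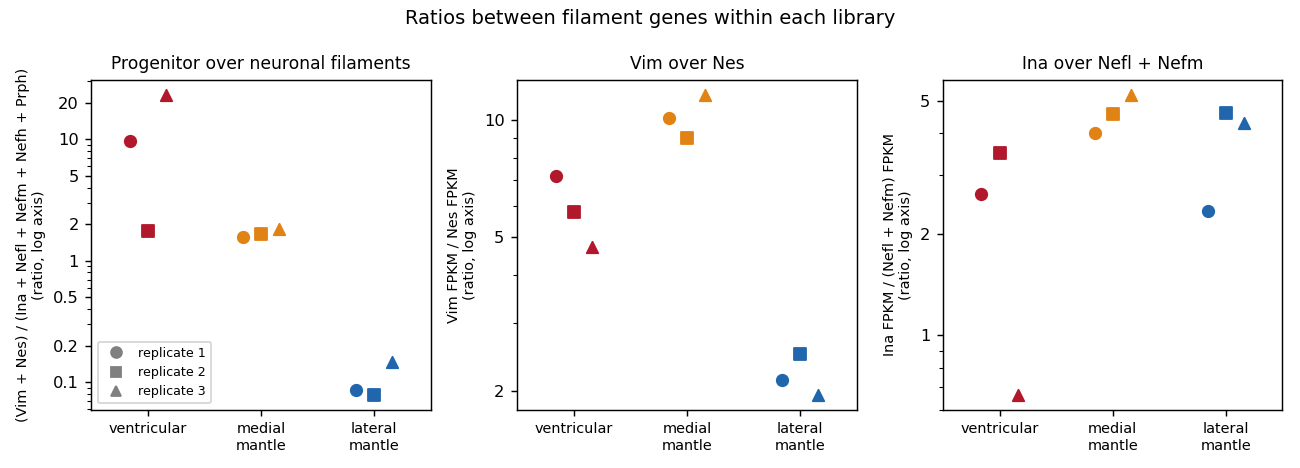
Ratios of FPKM levels within each library on log axes, by zone, with symbols for the replicate number: Vim plus Nes over the 5 neuronal genes, Vim over Nes, and Ina over Nefl plus Nefm. Vim over Nes is highest in the medial (8.99 to 11.6), intermediate in the ventricular (4.71 to 7.17) and lowest in the lateral mantle zone (1.96 to 2.49), with no overlap.

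The progenitor pair did not keep a fixed proportion. Vim over Nes was 7.17, 5.80 and 4.71 in the ventricular libraries, 10.1, 8.99 and 11.6 in the medial libraries, and 2.14, 2.49 and 1.96 in the lateral libraries. The zones did not overlap, and the medial zone was the highest. Of the means, Nes in the ventricular zone was 2.60-fold that in the medial zone, against 1.46-fold for Vim. From the medial to the lateral zone the order was turned round, with a 14.2-fold ratio of means for Vim and 2.96-fold for Nes.

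Proportions among the neuronal genes ranged most widely in the ventricular zone, where an end of each range came from the shallow replicate 3. Ina made up 39.9% to 77.5% of the neuronal filament level in ventricular, 79.7% to 83.6% in medial and 69.9% to 81.9% in lateral libraries. Nefl over Nefm was 0.563 to 1.25 in ventricular, 0.837 to 1.01 in medial and 0.754 to 1.04 in lateral libraries, so these ranges overlapped. Nefh was 0% to 1.43% of the triplet level in ventricular, 1.54% to 2.46% in medial and 1.22% to 1.52% in lateral libraries. In ventricular replicates 1 and 2, Ina made up 72.2% and 77.5% of the neuronal level, within the lateral range. Nefl over Nefm was 0.563 and 0.972 there, and Nefh 0.711% and 1.43% of the triplet. Ina over Nefl plus Nefm was 0.665 in the shallow ventricular replicate 3, against 2.63 and 3.49 in the other ventricular libraries and 2.35 to 5.21 in the mantle.

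The order of the members by level followed from these values. In the ventricular and medial zones Vim was highest in every library, and Prph was lowest or level with Nefh at 0 in all. In the lateral zone Ina was highest, followed by Nefl, Nefm and Vim, whose library ranges overlapped, then Nes, Nefh and Prph. Nes and Vim did not overlap there (10.9 to 26.2 and 27.1 to 51.4 FPKM).

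Vim and Nes are also used by vessel, mural and connective tissue cells, whose markers were counted in the same libraries. The 8 endothelial markers summed to 5.99 to 46.0 FPKM in ventricular, 22.2 to 58.8 in medial and 14.1 to 42.9 in lateral libraries. Between the ventricular and lateral zones 0 of 8 passed (limma, adjusted), against 19.6% of all tested genes. The 7 pericyte markers summed to 38.2 to 53.6 FPKM in ventricular, 25.8 to 36.5 in medial and 6.17 to 13.2 in lateral libraries. The sum was ordered as Vim and Nes were. Of the 6 tested genes, 1 was called higher in the ventricular than in the lateral zone (background 10.7% of tested genes). The median log2 difference of the list was -0.11. In ventricular libraries most of that sum was the called gene Notch3, a receptor also found in neural progenitors. It was at 23.1 to 42.5 FPKM in ventricular and 2.08 to 2.87 in lateral libraries. Mean Pdgfrb fell in the same order, at 6.20 FPKM in ventricular, 3.72 in medial and 2.16 in lateral libraries. Its log2 difference between the ventricular and lateral zones, 1.28, did not pass (limma adjusted p = 0.0531). Cspg4 (-0.31), Kcnj8 (-0.44) and Abcc9 (-0.53) leaned the other way without passing.

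The 8 markers of meninges and fibroblasts summed to 0.621 to 5.58, 4.81 to 7.06 and 2.03 to 7.52 FPKM in the ventricular, medial and lateral zones. The 8 microglial markers summed to 7.16 to 25.4, 12.54 to 28.8 and 40.7 to 52.9 FPKM in the same order. Of these, 2 of 8 were called lower in ventricular than in lateral tissue (background 8.93% of tested genes). The share of Vim or Nes that such cells gave was not tested. The 8 neuron markers summed to 445 to 1199 FPKM in ventricular, 1150 to 1360 in medial and 1641 to 1896 in lateral libraries. Of them 7 were called lower in ventricular than in lateral tissue (background 8.93% of tested genes). The median log2 difference of the 8 was -1.68, beside -1.47 for the 4 tested neuronal filament genes and 0.05 over all tested genes. The 8 progenitor markers had a median of 4.24, beside 3.62 for Vim and Nes.

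Other cytoplasmic filament genes were at low levels. Of 18, all were in the table and 4 were tested. Between the ventricular and lateral zones 0 passed by limma, against 19.6% of all tested genes, with a median log2 difference of 0.08. Gfap, the filament of mature astrocytes, was listed at 0 in all libraries except lateral replicate 2, at 0.108 FPKM. Des, the muscle filament gene, did not exceed 0.44 FPKM in any library. Iffo1, an orphan family member, was the most abundant of these, at 14.2 ± 2.14 FPKM in ventricular and 13.0 ± 1.27 in lateral libraries (SD, n = 3 each). The keratin Krt10 was 3.42 ± 0.724 against 3.35 ± 0.395 FPKM and Iffo2 was 5.32 ± 5.33 against 3.99 ± 0.957 FPKM in the same zones.

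Nuclear lamins, the filament proteins under the nuclear envelope, differed among themselves. Lmnb1, a B-type lamin, measured 127, 121 and 215 FPKM in the ventricular libraries, 104, 120 and 121 FPKM in the medial libraries, and 74.4, 66.8 and 80.8 FPKM in the lateral libraries. Every ventricular and medial library was above every lateral one, and the ventricular zone exceeded the lateral by 1.01 ± 0.22 on the log2 scale (SE; limma adjusted p = 0.0137). That call was lost without lateral replicate 1 or 2 (adjusted p = 0.053 and 0.0601). Lmnb2 did not pass, at 25.0 ± 4.56 FPKM in ventricular and 23.6 ± 1.71 in lateral libraries.

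Lmna, the A-type lamin gene known to rise as cells differentiate, did not pass either. It measured 2.88 and 6.52 FPKM in ventricular replicates 1 and 2 and was listed at 0 in replicate 3, then 8.24, 9.18 and 2.53 FPKM in the medial libraries, and 13.5, 9.01 and 10.003 FPKM in the lateral libraries. The ventricular and lateral libraries did not overlap. The log2 difference was -1.92 ± 0.68 (SE; limma adjusted p = 0.0742). It passed without ventricular replicate 2 (-2.57, limma adjusted p = 0.0169), without both shallow libraries (-1.11, adjusted p = 0.0277), with quantile normalization (adjusted p = 0.0439) and with library weights (0.00135). Of 14004 tested genes, these fits called 3958, 3933, 3039 and 6800 in turn, against 2750 in the main fit.

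**Figure D4:**
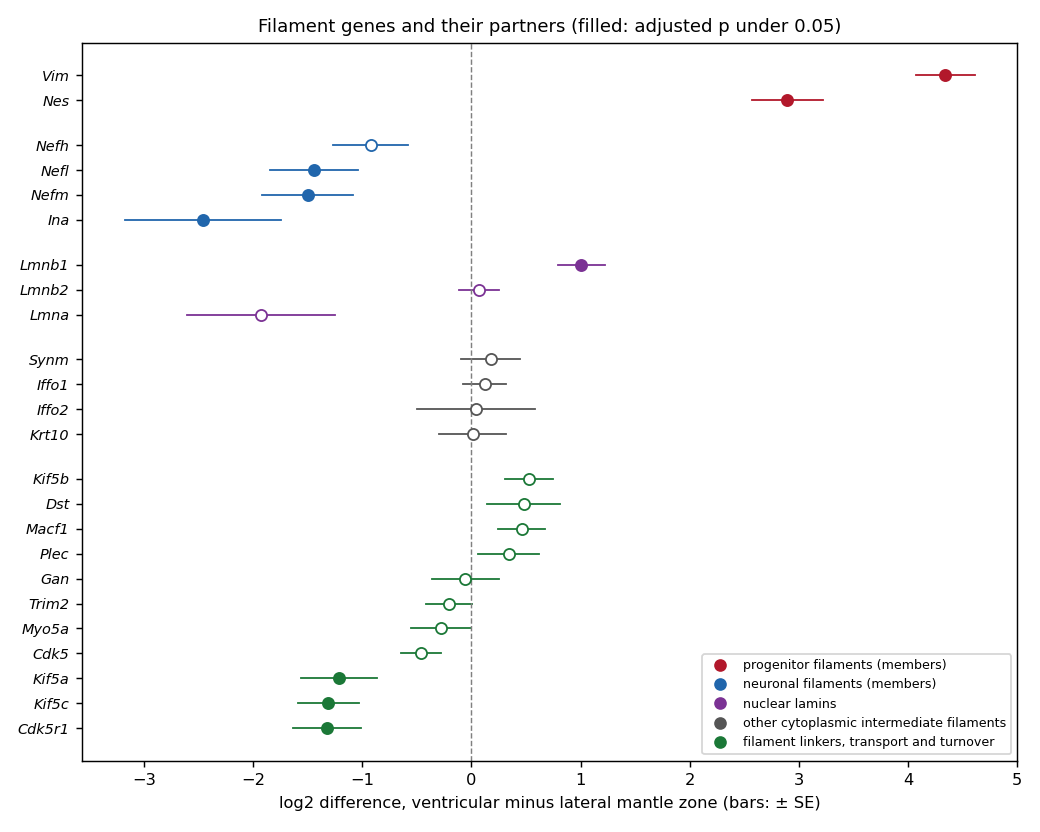
Log2 difference, ventricular minus lateral mantle zone, with ± SE bars on the log2(FPKM + 1) scale, for all tested genes of the 7 members, the nuclear lamins, the other cytoplasmic filaments and the linker, transport and turnover list. Filled points mark adjusted p under 0.05, and Vim (4.34) and Ina (-2.46) lie at the ends.

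Partners of the filaments were counted by direction. Of 15 genes for linkers, transport and turnover, 14 were in the table and 11 were tested. Of these, 3 were lower in ventricular than in lateral tissue (background 8.93% of tested genes), 0 were higher (background 10.7%) and 8 did not pass. Whether the list differed from other genes was not tested. The list's median log2 difference was -0.20. The 3 were Kif5a and Kif5c, motors of axonal transport that carry neurofilaments, and Cdk5r1, the activator of Cdk5, a kinase that phosphorylates neurofilament tails. Kif5b, of the same motor family, leaned the other way without passing (log2 difference 0.53, limma adjusted p = 0.12).

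Kif5c was 72.3 ± 37.8 FPKM in ventricular and 167 ± 8.53 in lateral libraries (SD, n = 3 each; log2 difference -1.31, limma adjusted p = 0.0136). Cdk5r1 was 74.1 ± 37.7 against 172 ± 20.4 FPKM (-1.32, limma adjusted p = 0.0198), and Kif5a 36.8 ± 21.3 against 77.0 ± 3.77 FPKM (-1.21, limma adjusted p = 0.0391). In each, the ventricular value was highest in replicate 2 and still below every lateral library. Kif5c did not pass without ventricular replicate 1 (0.0531) or lateral replicate 1 (0.0571), nor Cdk5r1 without lateral replicate 1, 2 or 3 (0.0768, 0.0653 and 0.0507). Kif5a was lost without ventricular replicate 1 (0.0861), medial replicate 1, 2 or 3 (0.0586, 0.0606 and 0.0507) or lateral replicate 1, 2 or 3 (0.116, 0.103 and 0.0979). It was also lost with a pseudocount of 0.1 (0.0507), no filter (0.0772), quantile normalization (0.0509), no intensity trend (0.0566) and only those zones in the fit (0.0841), the last of which ended the Cdk5r1 call too (0.0504).

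Macf1, Trim2 and Myo5a, the most abundant of the list's other genes, did not pass. The cross-linker Macf1 was 66.8 ± 9.23 FPKM in ventricular and 48.0 ± 3.58 in lateral libraries (limma adjusted p = 0.158). The ubiquitin ligase Trim2, which binds the light chain, was 39.3 ± 8.54 against 45.4 ± 9.25 FPKM (adjusted p = 0.508), and the motor Myo5a was 39.9 ± 18.2 against 45.7 ± 5.54 FPKM (adjusted p = 0.498). Without the shallow ventricular replicate 3, Myo5a passed (log2 difference -0.61, limma adjusted p = 0.0462), as it did without both shallow libraries (0.0329). With library weights Myo5a (-0.75, limma adjusted p = 0.00231) and Macf1 (0.41, 0.0145) passed, in a fit that called 6800 of 14004 tested genes.

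Patterns over the 9 libraries were compared with those of 8829 genes with a mean of at least 5 FPKM, by Pearson's r on the log2 scale, as a description in which all points share zone and library. Closest to Vim were the rhomboid family gene Rhbdl3, the Notch-modifying enzyme Mfng and the Wnt receptor Fzd2 (r = 0.995, 0.994 and 0.993). Closest to Nes were Mrc2, Zfp687 and Akna (0.990, 0.989 and 0.987), and closest to Ina were Dad1, Kif5a and Jazf1 (0.998, 0.994 and 0.993). Nefl was nearest to Slc25a4, Hsdl1 and Nipsnap1 (0.971, 0.967 and 0.966), and Nefm to Rgs2, Lypla2 and Dirc2 (0.980, 0.969 and 0.968). Nefh was nearest to Rab33a, Tmem9b and Dpysl3 (0.986, 0.985 and 0.979). Prph, which rests on a few fragments, reached 0.909 at most, with Ncan, followed by Ccdc124 and Polr2i (0.908 and 0.888).

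Mfng shows the shape shared with Vim, at 136, 77.9 and 128 FPKM in the ventricular libraries, 55.4, 53.8 and 70.4 FPKM in the medial libraries and 2.77, 1.10 and 2.35 FPKM in the lateral libraries. Rgs2, a regulator of G protein signalling, shows that of Nefm, at 15.6, 28.5 and 8.56 FPKM in the ventricular libraries, 29.5, 24.4 and 25.0 FPKM in the medial libraries and 77.2, 29.4 and 55.6 FPKM in the lateral libraries. In both Nefm and Rgs2, lateral replicate 1 was high, replicate 2 low and replicate 3 between them. Such likeness was common: 594 genes reached r of 0.9 with Vim, 750 with Ina, 246 with Nefl and 2 with Prph.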

How the data were processed

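Per the labels' protocols, poly(A) libraries made with a kit for Illumina from microdissected zones were read as 100 bp pairs. The authors deposited FPKM values, with a single value for each gene in each library. Bowtie2 2.1.0 and mm10 appear in the submitters' processing notes. The sources used here do not give the program that estimated FPKM. Of 38370 rows, 42 identical and 133 with a repeated symbol were dropped, keeping the row with the highest mean. Identical library columns numbered 0.

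Tests used limma 3.58.1 in R 4.3.3 with 1 mean per zone over all 9 libraries and an intensity trend, on log2(FPKM + 1), a scale that understates the change of low genes. A gene was tested if 3 or more libraries reached 1 FPKM, which kept 14004 and left out 24191. Two-sided p-values were adjusted over all tested genes (Benjamini-Hochberg), at a threshold of 0.05. The fit was run on simulated data in which all zones shared 1 spread per gene. The real ventricular libraries spread more than the lateral ones (root mean square deviation 0.408 to 0.755, against 0.269 to 0.316). That run therefore cannot show how the fit deals with unequal spread. Depth came from the spacing of low FPKM values in genes with 1 transcript of at least 1500 bp, and is relative and approximate. Annotation was GENCODE M21 and RefSeq on GRCm38.

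The members, the gene lists, the rule for naming genes and the alternatives were chosen with earlier results of these data known. The rule named all members, per filament list up to 4 genes that passed and up to 3 that did not, and 3 genes of like pattern per member. Nkx2-1, Gfap, Des, Sncg, Notch3, Pdgfrb, Cspg4, Kcnj8, Abcc9, Sox2, Fabp7, Hes5 and Kif5b were named after their values were seen. Alternatives covered the pseudocount, the filter, the scaling, the trend, library weights, the zones fitted, a replicate block and leaving out libraries. Genes with a library at 0 are given per library, since a 0 may be a failed estimate.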

Additional observations from a re-analysis of the deposited data

How the results depend on the processing

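Vim and Nes between the ventricular and lateral zones, and Vim between the medial and lateral zones, stayed past the threshold in all 19 alternatives, and 0 of the 18 differences of tested members changed direction in any alternative. The number of members called between the ventricular and lateral zones was 5, against 2 with no filter, 2 with only those zones in the fit, 3 without both shallow libraries and 2 to 6 without single libraries. Between the medial and lateral zones it was 2, against 1 with no filter, 3 with only those zones in the fit, 3 with array weights and 1 to 2 without single libraries. Between the ventricular and medial zones it was 0, against 5 with array weights and 0 to 2 without single libraries. Over all genes the calls ran from 959 to 6800 around 2750, from 207 to 3700 around 577, and from 0 to 2761 around 0, in the same order. The causes were not tested.

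The paired fit with the replicate block left these member counts at 5, 2 and 0. Same-numbered libraries correlated at -0.0984 to 0.249, over 0.1 in 4 of 9 pairs, and 5 of 9 libraries had their highest correlation with a library of their own number (3 of 9 in both other zones). The labels do not tie the numbers together and not every pair was over 0.1, so they were not taken as pairs. Under the block, Lmna passed between the ventricular and lateral zones (-1.92, limma adjusted p = 0.0332).

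Scaling moved the median gene by -0.11 (ventricular against lateral) and -0.15 (medial against lateral) on the log2 scale with trimmed means, and by -0.06 and -0.13 with quantile normalization. The differences of genes near 0 between the ventricular and lateral zones turned negative: Iffo1 -0.0064, Iffo2 -0.23, Krt10 -0.11 and Lmnb2 -0.016 with quantile normalization, Iffo2 -0.067, Krt10 -0.088 and Lmnb2 -0.053 with trimmed means, Iffo2 -0.65, Krt10 -0.21 and Lmnb2 -0.10 with array weights, Iffo2 -0.60, Krt10 -0.040 and Lmnb2 -0.068 without both shallow libraries, and Iffo2 -0.0099 with a pseudocount of 0.1. Without single libraries they ran from -0.60 to 0.43 for Iffo2, -0.075 to 0.16 for Krt10, -0.068 to 0.16 for Lmnb2 and -0.61 to 0.00029 for Myo5a, and the alternatives for these list genes were chosen after seeing the data. With no filter Prph did not pass (limma adjusted p = 0.271, 0.649 and 0.99). On a transcript of 2 kb, 1 fragment was worth 1.91 FPKM in ventricular replicate 3 and 0.923 in medial replicate 3.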
